A study of Mus musculus with 5 samples.

Results

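The voltage-gated and potassium channel genes described here are the 131 autosomal protein-coding genes, of 20807 in the GENCODE M21 annotation of the mouse mm10 assembly, whose symbols start with Kcn or Cacn or consist of Scn, digits and a or b. The genes were chosen by symbol alone, and a gene was counted as occupied when a macroH2A1.2 region overlapped its window, defined as the gene body with 10 kb on each side. The study mapped a GFP-tagged copy of the histone variant macroH2A1.2, introduced into 3T3-L1 cells by lentivirus, by chromatin immunoprecipitation and sequencing. 3T3-L1 is a mouse line of pre-adipocytes that turn into fat cells under hormones. Both conditions carried the transgene, and no sample immunoprecipitated without it was used here. The paper reports that cells with this transgene held less lipid after differentiation than cells expressing GFP alone. The name mature adipocyte is therefore only the paper's label for the induced cells, and how far they had differentiated was not tested here. The pre-adipocyte group had 2 replicates and the mature adipocyte group had 2 replicates. Induction started 2 days after confluence, with insulin at 10 µg/ml, dexamethasone at 0.25 µM and IBMX, a phosphodiesterase inhibitor, at 500 µM, given for 60 h. The 60 h is the time in this mixture, and the paper describes a differentiation protocol that lasted longer. Chromatin was cut with micrococcal nuclease and precipitated with an antibody to GFP, and 1 library prepared with no antibody served as the control for every region. The title of each library gave its condition, whereas the description fields of the mature libraries and of the control also named the pre-differentiation state, so the grouping rested on the titles. The tables hold chromatin regions and no RNA, so the cell type could not be checked by its marker genes, and in a bulk culture more cells carrying the variant at a locus cannot be told apart from more of it per cell.

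Voltage-gated channels open and close with the membrane potential and carry potassium, calcium or sodium ions. The large pore-forming subunits work with smaller accessory subunits that set their gating and their transport to the membrane. They are best known from neurons, heart, muscle and endocrine cells, and several potassium and calcium channels are also studied in fat cells. MacroH2A variants carry a large globular domain beside the histone fold and occupy broad chromatin domains, often at genes that are not transcribed, although they also lie over some active genes.

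The deposited tables list 36468 and 38546 regions for pre-adipocyte replicates 1 and 2 and 59375 and 61196 for mature replicates 1 and 2. The ChIP reads inside those regions numbered 9876187, 2833105, 11592708 and 11202845. Relative to the control library, the library sizes were 1.20, 0.549, 1.23 and 1.21, so pre-adipocyte replicate 2 was much the shallowest. Its regions were shorter, with a median of 3000 bp against 3400 to 5800 bp in the other 3 libraries, and its median enrichment over control was higher. Values for 4 samples are given below in the order pre-adipocyte replicates 1 and 2, then mature replicates 1 and 2. With 2 samples against 2, the smallest 2-sided p that the exact permutation test over samples can give is 0.333. The paper calls the replicates biological duplicates, but the labels do not say whether they came from separate cultures. The p-values therefore measure only the spread between these samples.

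A region lay in the window of 74, 71, 83 and 80 of the 131 channel genes in the 4 samples. In each sample this was a larger share than among all genes, 56.5%, 54.2%, 63.4% and 61.1% against 35.0%, 30.3%, 41.5% and 41.6%. Other genes, weighted to the lengths of the channel genes, stood closer, at 40.4%, 37.1%, 47.9% and 48.2%. Mature replicates had on average 9.0 more occupied channel genes than pre-adipocyte replicates (72.5 ± 2.12 against 81.5 ± 2.12, SD, n = 2 each). The groups did not overlap, but the exact permutation p was 0.333, and all genes showed the same order, with 7286 and 6304 occupied genes in pre-adipocytes and 8624 and 8662 in mature cells.

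A region in all 4 samples was found at 59 of 131 channel genes, or 45.0% (Wilson 95% interval 36.8 to 53.6, which covers counting error over genes only), beside 21.1% of all genes. At least 1 sample had a region at 96 channel genes (73.3%), beside 53.7% of all genes, and 35 had none in any sample. Both pre-adipocyte replicates had a region at 61 channel genes (46.6%, beside 24.2% of all genes). Both mature replicates had one at 76 (58.0%, beside 34.4%). These shares are not matched for gene length. They are descriptions over genes that are not independent of each other, and no test was made of the difference.

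Regions covered 12.02%, 4.87%, 13.7% and 13.2% of the summed channel gene windows, beside 8.08%, 3.74%, 8.35% and 8.07% of the windows of all genes. The mature replicates were on average 4.98 percentage points higher, and the groups did not overlap (exact permutation p = 0.333). Pre-adipocyte replicate 2 decided the size of this difference, which was 1.40 points without it. The median enrichment of the regions at channel genes, the ChIP to control read ratio scaled by library size, was 1.74, 2.15, 2.01 and 2.06. Pre-adipocyte replicate 2 was the highest and pre-adipocyte replicate 1 the lowest, so the mature samples lay between them (exact permutation p = 1.0), and the difference of 0.0882 turned to -0.116 without pre-adipocyte replicate 1 and rose to 0.292 without pre-adipocyte replicate 2. Over all autosomal regions the medians were 1.61, 2.01, 1.79 and 1.82, lower than at the channel genes in each library.

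Channel genes are often long, and long genes meet more regions. Among genes under 10 kb, 18.2% of 22 channel genes had a region in all 4 samples, beside 13.96% of 7265 other protein-coding genes. For 10 to 30 kb the shares were 25.0% of 32 and 18.1% of 6150, and in both classes the Wilson intervals of channel genes and others overlapped. Between 30 and 100 kb the share was 52.9% of 34 channel genes (interval 36.7 to 68.6) and 26.0% of 4932 others (24.8 to 27.3). From 100 to 300 kb it was 75.0% of 24 (55.1 to 88.0) and 38.5% of 1807 others (36.3 to 40.7). Above 300 kb, 57.9% of 19 channel genes and 44.8% of 522 others were occupied in all 4, with overlapping intervals. The gap between channel genes and others was thus widest for genes of 30 to 300 kb.

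**Figure D1:**
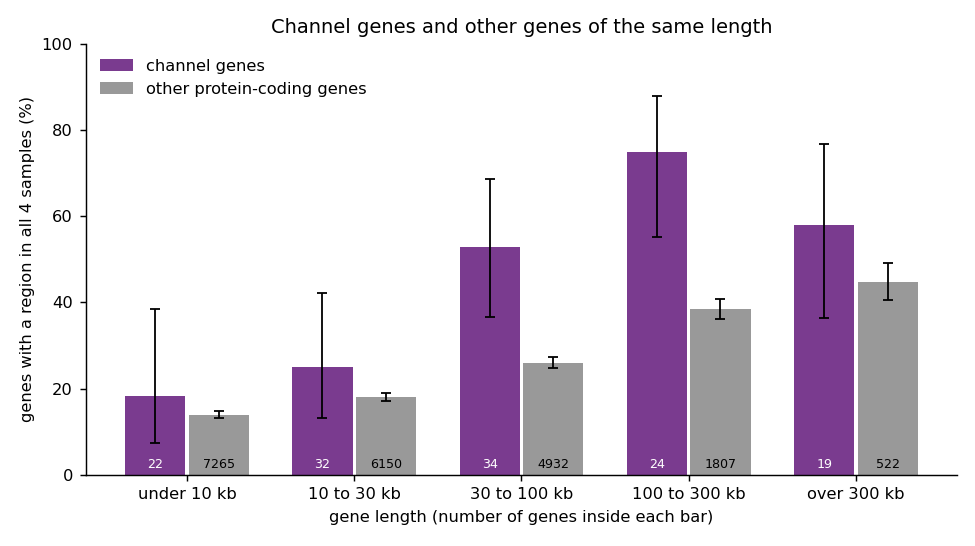
Share of genes with a macroH2A1.2 region in all 4 samples (y axis, percent) by gene length (x axis), for channel genes (purple) and other autosomal protein-coding genes (grey). Bars start at 0, error bars are Wilson 95% intervals over genes, and the number in each bar is its number of genes. The channel gene bar stands at 75.0% in the class of 100 to 300 kb, where other genes stand at 38.5%.

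Weighting the other genes by the length classes of the channel genes gave 27.1% with a region in all 4 samples, 17.98 percentage points below the 45.0% of the channel genes. Length classes taken within each chromosome, a choice made after seeing the data, gave 28.8%, and 8 classes of equal size gave 26.8%. Within a sample, the mean covered share of a channel gene window was 12.02%, 4.601%, 13.99% and 13.94%, beside length-weighted means of 8.01%, 3.67%, 8.21% and 7.92% for other genes. Coverage was uneven, and the median channel gene had 3.44%, 1.17%, 4.74% and 5.14% of its window covered.

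The share of occupied channel genes differed between chromosomes. The shares of other genes given per chromosome are not matched for length. Of the 18 channel genes on chromosome 2, 15 had a region in all 4 samples, beside 29.1% of the other genes there. The 15 include Scn3a, Scn2a, Scn1a, Scn9a and Scn7a, which lie together in a cluster. All 4 channel genes on chromosome 17 (Cacna1h, Kcng3, Kcnh8 and Kcnk12) had one, beside 34.7% of the others. Chromosome 11 had 8 of 14, beside 28.98% of the others, and chromosome 15 had 6 of 10, beside 49.4% of the others. On chromosome 7, 11 of 14 channel genes had no region in any sample, among them Kcnc1, Kcnj11 and Kcnn4, and only 16.7% of the other genes there had a region in at least 1 sample and 1.49% in all 4. Kcnq1, the pore of the slow cardiac delayed rectifier, was the 1 channel gene of chromosome 7 with a region in all 4 samples. Its window was covered by 1.47%, 1.17%, 6.81% and 13.1%.

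Relative to the gene, regions of channel genes lay mostly inside introns. In the 4 samples 58.1%, 62.1%, 65.3% and 61.8% of gene and region pairs touched introns and no exon, beside 28.98%, 41.3%, 36.6% and 37.5% at other genes. Only 7.06% to 9.30% lay wholly upstream, beside 22.5% to 24.6% at other genes. A region over the annotated start was found in 2.88%, 0.664%, 1.93% and 2.06% of pairs at channel genes and in 6.83%, 2.83%, 4.13% and 3.78% at the others. These shares mix genes of different lengths, and a long gene gives more intronic pairs.

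In genes of at least 30 kb the profile along the gene had another shape. For the 77 channel genes of that length, the covered share of each of 10 equal parts of the gene body was 11.1% to 15.1% in pre-adipocyte replicate 1, 3.07% to 5.19% in replicate 2, and 11.1% to 16.7% in the mature samples. For 7262 other genes the same parts were covered by 5.94% to 7.77%, 2.50% to 3.74% and 6.21% to 8.38%. Before the start the order turned in most places. In all 5 upstream bins of pre-adipocyte replicate 1, and in all 5 of mature replicate 1, channel genes were covered less than others, for instance by 12.4% against 16.7% and by 12.5% against 17.3% in the outermost bin. In the other 2 samples some upstream bins were lower and some higher at channel genes. Just after the gene end the channel genes reached 15.8%, 8.32%, 19.3% and 22.3%, and the others 6.26%, 2.87%, 6.69% and 6.34%.

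**Figure D2:**
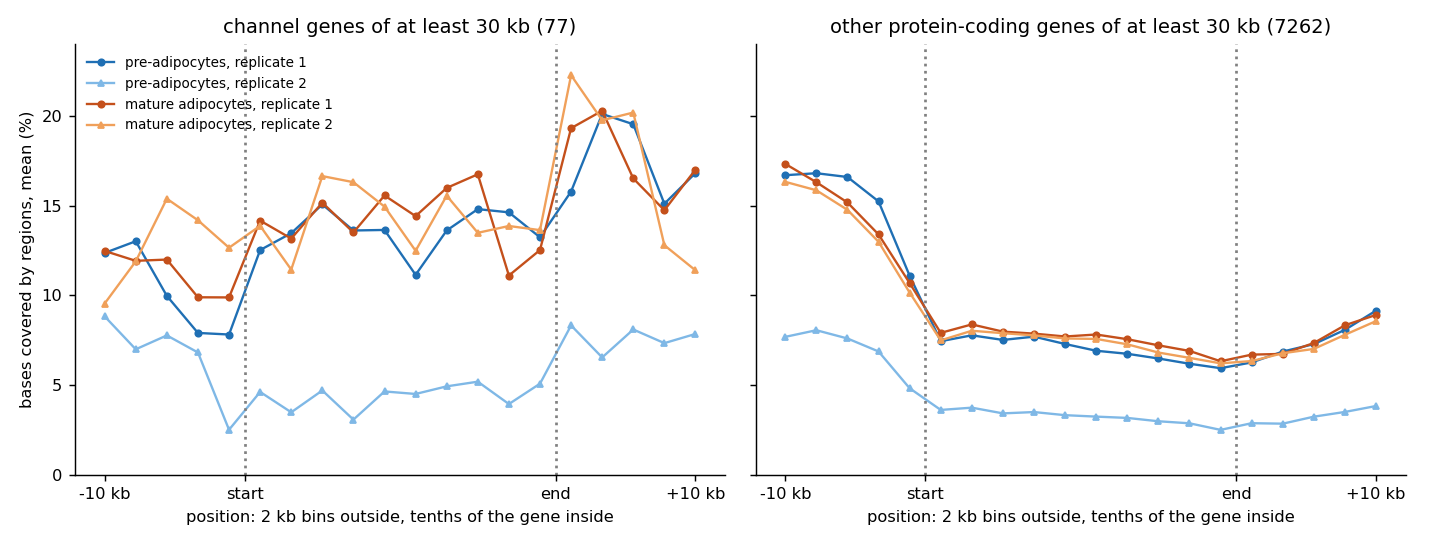
Mean share of bases covered by regions (y axis, percent) along channel genes (left) and other protein-coding genes (right) of at least 30 kb. The x axis has 5 bins of 2 kb before the start, 10 equal parts of the gene body and 5 bins of 2 kb after the end; lines are the 4 samples. In the other genes the line is highest far upstream and falls across the start, while in the channel genes it stays between 11.1% and 16.7% within the gene in 3 samples and is lower in pre-adipocyte replicate 2.

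No channel gene had a region over its annotated start in all 4 samples, beside 0.639% of all genes. At least 1 sample had a region over the start of 26 channel genes (19.8%), beside 11.7% of all genes. The start was covered in 3 samples at Kcne1, Kcne2, Kcng4 and Kcns1. A RefSeq promoter in mm10, the 250 bases before and 50 after a gene start, was matched by symbol for 97 of 131 channel genes, of which 86 had starts within 1 kb of the annotated one. The median was 10.0 CG dinucleotides in the 300 bases, both for the 15 with a region over the start in at least 1 sample and for the 71 without, beside 7.0 over all autosomal RefSeq promoters. The 30 bases just before the start are shown for Kcne2, Kcng4 and Kcns1 (Kcne1 had no matched promoter), 5′ to 3′ on the gene's strand, because their CG content differed. Capitals mark CG dinucleotides.
Kcne2, chr16:92292359-92292388, plus strand: ttaaaCGtttggatttgtaaaaagcccagc
Kcng4, chr8:119635681-119635710, minus strand: cctgctgcctggctgatggagagattaatc
Kcns1, chr2:164171114-164171143, minus strand: aggagggggcCGCGgggcctcCGcagtagt
The 300 bases of these promoters held 9, 4 and 22 CG dinucleotides, so these 3 covered starts ranged from CG-poor to CG-rich.

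The families differed in how many of their genes were occupied, and each count is set beside the share of other genes weighted to the same lengths. Pore-forming sodium channel genes had a region in all 4 samples at 8 of 10 genes (beside 34.7%), and none of the 10 was without a region in every sample. Pore-forming calcium channel genes had 7 of 9 (beside 36.4%), with Cacna1e alone lacking any region. Kv pore-forming potassium channel genes, the largest family, had 17 of 39 in all 4 samples (43.6%, beside 26.01%) and 11 with none. Inward rectifiers had 5 of 15 (33.3%, beside 21.5%) and tandem-pore leak channels 4 of 14 (28.6%, beside 23.5%), with 6 and 5 genes lacking any region. Calcium- or sodium-activated potassium channels, counted together with Kcnu1, had 4 of 8 (beside 32.6%) and potassium channel accessory genes 6 of 16 (37.5%, beside 24.2%). Among the calcium channel accessory genes, α2δ had 2 of 4 (beside 41.6%), β had 3 of 4 (beside 29.9%) and γ had 3 of 8 (beside 24.6%). Sodium channel β genes had 0 of 4 (beside 18.1%). The small families rest on few genes. The median length was 111 kb for sodium channel pore genes, 159 kb for calcium channel pore genes and 14.02 kb for sodium channel β genes, so the families with the highest and the lowest shares also differed in length.

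**Figure D3:**
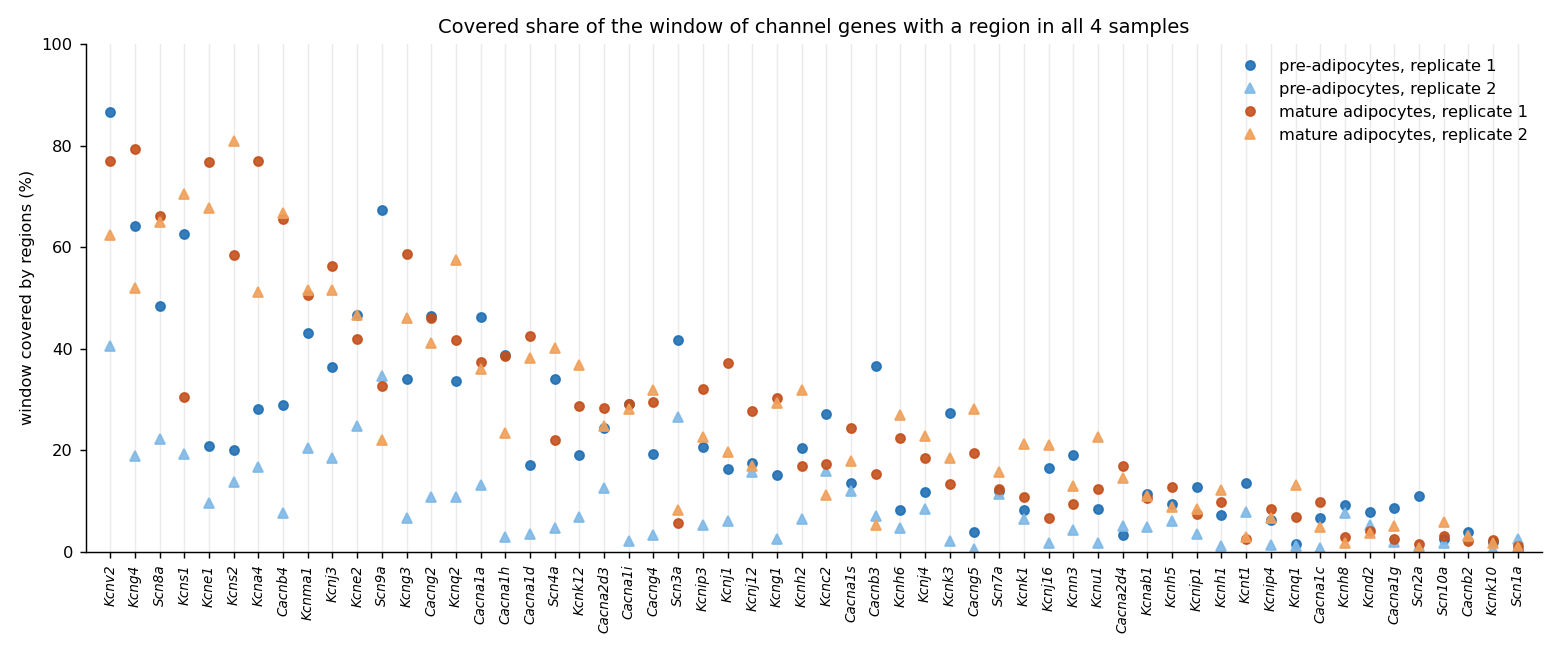
Covered share of the window (y axis, percent) for 58 of the 59 channel genes with a region in all 4 samples (x axis, ordered by mean share); 1 is not reported here. Circles are replicate 1 and triangles replicate 2, blue for pre-adipocytes and orange for mature adipocytes. The highest point is Kcnv2 in pre-adipocyte replicate 1 at 86.7%, and pre-adipocyte replicate 2, in light blue, is the lowest of the 4 samples at 47 of them.

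Among the Kv genes, Kcnv2 (chr19:27322588-27337179), which encodes a silent Kv subunit, had the highest mean coverage of all channel genes. Its window was covered by 86.7%, 40.5%, 76.9% and 62.5%, with regions of up to 21200 bp. Kcng4 (chr8:119623854-119635680), another silent subunit, was covered by 64.1%, 18.8%, 79.3% and 52.0%. Kcns1 (chr2:164163619-164171113) was covered by 62.6%, 19.3%, 30.6% and 70.6%. At each of these 3 genes the replicates of a condition differed by more than the conditions did, and the groups overlapped.

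Kcns2 (chr15:34837355-34843407), also a silent Kv subunit, was covered by 20.1% and 13.8% in pre-adipocytes and by 58.5% and 80.8% in mature cells, and the groups did not overlap. Kcna4 (chr2:107290639-107298502), a pore subunit of a fast-inactivating A-type current, gave 28.2% and 16.7% against 77.0% and 51.2%. Its regions were only weakly enriched over control, by 1.26, 1.51, 1.33 and 1.24, and no difference was left with regions of at least 2-fold enrichment. With the gene body alone its groups overlapped. Kcna3, which encodes a Kv channel known from T cells, had regions in pre-adipocyte replicate 2 alone, over 16.4% of its window. The Kcna1, Kcna5 and Kcna6 genes stand together on chromosome 6, and their joint stretch of 0.228 Mb was covered by 0%, 0%, 0.438% and 1.40%. Of the Kv1 genes, only Kcna4 had a region in all 4 samples.

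The inward rectifier gene with the highest coverage was Kcnj3 (chr2:55435970-55598145), a G-protein-gated channel. It was covered by 36.4%, 18.6%, 56.2% and 51.6%, higher in both mature samples, although its enrichment was low at 1.31, 1.75, 1.39 and 1.42. With regions of at least 2-fold enrichment alone, its difference turned to -0.988 percentage points. Kcnj8, a pore of ATP-sensitive channels, and Kcnj11, another such pore, had no region. The most covered tandem-pore gene was Kcnk12, with 19.1%, 6.93%, 28.8% and 36.8%. Kcnk3, a leak channel, had 27.4%, 2.10%, 13.3% and 18.6%, and its groups overlapped.

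Kcnma1 (chr14:23289431-24014491), the pore of the large-conductance calcium-activated channel, held more ChIP reads than any other channel gene. Its regions held 10382, 2900, 14617 and 14752 ChIP reads and 4690, 2305, 5544 and 5615 control reads. Regions covered 43.0%, 20.4%, 50.6% and 51.5% of the window of this 725 kb gene, in 44, 42, 63 and 70 pieces. Both mature samples were above both pre-adipocyte samples in coverage. Kcnn4, the intermediate-conductance channel, had no region. Kcnip4 (chr5:48389502-49524907), an accessory gene and with 1135 kb the longest channel gene, was covered by only 6.35%, 1.40%, 8.50% and 6.65%. Other long genes ranged widely. Cacna2d3 at 817 kb had 24.5%, 12.6%, 28.4% and 24.7%, Cacna1c at 609 kb had 6.71%, 0.699%, 9.89% and 4.99%, and Kcnq5 at 564 kb had none. Further long genes without any region were Cacna1e (494 kb), Kcnh7 (491 kb), Kcnn2 (417 kb) and Kcnmb2 (298 kb).

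Kcne1 and Kcne2, small potassium channel β subunits, stand close together on chromosome 16. Kcne1 (chr16:92345982-92359468) was covered by 20.9% and 9.56% in pre-adipocytes and by 76.7% and 67.7% in mature cells. Kcne2 (chr16:92292389-92298129) was covered by 46.7%, 24.9%, 42.0% and 46.7%, and its groups overlapped. The neighbours thus stood at different levels in pre-adipocytes.

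Among the calcium channel genes, Cacnb4 (chr2:52428320-52676831), a β subunit, showed the highest coverage. It had 28.97% and 7.75% in pre-adipocytes and 65.6% and 66.8% in mature cells. Cacna1d (chr14:30039939-30491455), an L-type pore, was covered by 17.0% and 3.60% against 42.5% and 38.1%, with 16 and 5 regions against 52 and 47. At both genes the groups did not overlap, although the pre-adipocyte replicates differed widely from each other. With regions of at least 2-fold enrichment the gap at Cacnb4 shrank from 47.8 to 10.9 points. Cacna1a, the P/Q-type pore, had 46.3%, 13.2%, 37.4% and 35.9%, and Cacng2, a regulator of AMPA receptors, had 46.4%, 10.8%, 46.0% and 41.2%. At both, pre-adipocyte replicate 1 was as high as or higher than the mature samples. Cacna2d1 was nearly empty, with 0%, 1.96%, 2.76% and 2.48%, and Cacna1g, a T-type pore, had 8.63%, 1.88%, 2.58% and 5.14%.

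Scn8a (chr15:100869858-101045938), which encodes the sodium channel Nav1.6, was covered by 48.4%, 22.1%, 66.1% and 65.0% and had 14, 18, 21 and 23 regions. The only sodium channel β gene with a region was Scn3b, with 16.0%, 0%, 6.60% and 5.66%. Scn2b and Scn4b had none.

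The sodium channel genes Scn3a, Scn2a, Scn1a, Scn9a and Scn7a lie together in a cluster of 1.35 Mb (chr2:65447118-66794914, with 10 kb at each end). Here coverage was higher in pre-adipocytes. The cluster was covered by 17.2% and 9.59% in pre-adipocytes and by 7.51% and 7.39% in mature cells. Scn3a (chr2:65457118-65567627) had 41.8% and 26.6% against 5.67% and 8.28%, with 7 and 9 regions against 2 and 4. Scn9a (chr2:66480080-66634962), the gene of the pain-associated Nav1.7, had 67.4% and 34.7% against 32.7% and 22.1%. At both genes the shallow pre-adipocyte replicate 2 was above both mature samples. These regions were weakly enriched, and with those of at least 2-fold enrichment alone the differences shrank from -27.2 to -1.46 points at Scn3a and from -23.7 to -2.63 points at Scn9a, with overlapping groups. At an FDR of at most 1e-05 the groups also overlapped at Scn9a. Scn2a had 10.9%, 1.22%, 1.56% and 0.840%, and its groups overlapped. Scn1a was almost bare, at 0.433%, 2.56%, 1.06% and 0.947%. Scn7a, an atypical member that senses sodium, had 12.02%, 11.4%, 12.3% and 15.7%, a gap that turned to the other direction when coverage was scaled to all genes. Within 1 cluster, the covered share of a window in pre-adipocyte replicate 1 ran from 0.433% at Scn1a to 67.4% at Scn9a.

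**Figure D4:**
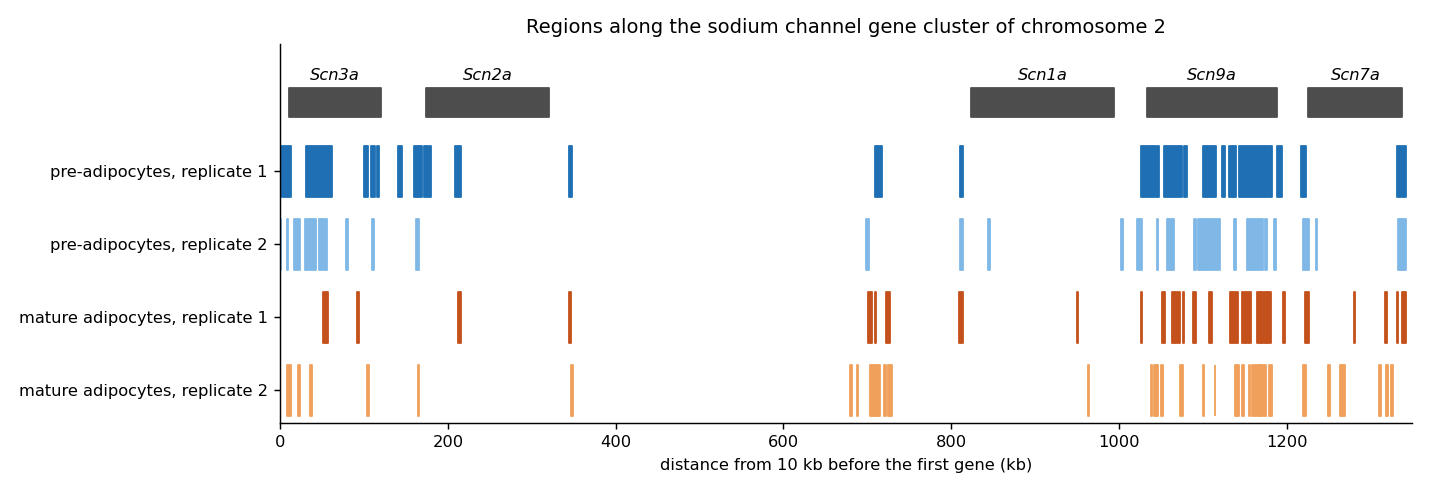
Regions (coloured blocks) in each of the 4 samples along the sodium channel cluster of chromosome 2. The x axis is distance in kb from 10 kb before the first gene, and grey bars are gene bodies. Scn3a carries 7 and 9 regions in pre-adipocytes and 2 and 4 in mature adipocytes, and almost no block lies over Scn1a in any sample.

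Of the 59 channel genes with a region in all 4 samples, 28 (47.5%) were covered more in both mature samples than in both pre-adipocyte samples, beside 30.3% of the 4396 genes of this kind. In the opposite direction there were 6 (10.2%), beside 8.21%. These were Scn3a, Scn9a, Kcnt1, Kcnh8, Kcnd2 and Cacnb2. Cacnb2 had 3.90% and 3.21% against 2.08% and 3.16%, and Kcnd2, an A-type pore, had 7.79% and 5.204% against 4.19% and 3.63%, a difference that turned to 0.543 percentage points with regions at an FDR of at most 1e-05. Kcnt1, a sodium-activated channel, had 13.5% and 7.87% against 2.50% and 2.95%. Kcnh8 had 9.23% and 7.67% against 2.93% and 1.72%.

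Because the shallowest library also had the lowest coverage, each share was also divided by the covered share of all gene windows in the same sample. On this relative scale, mature samples were higher at 22 of 59 channel genes (37.3%), beside 18.4% of all genes of this kind, and pre-adipocyte samples at 10 (16.9%), beside 30%. The 10 were the same 6 genes with Kcnv2, Kcnc2, Cacnb3 and Scn2a. On both scales the channel genes leaned to the mature samples, with a split of 28 to 6 unscaled and 22 to 10 scaled. All genes of this kind split 1333 to 361 unscaled and 811 to 1319 scaled. Unscaled, the share of channel genes was above that of all genes in both directions. The shares of all genes were not matched for length here, and the part of gene length in this lean was not tested.

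Regions in both replicates of mature cells and in neither pre-adipocyte replicate were found at 6 channel genes (4.58%), beside 4.86% of all genes. Among them were Kcng2, Kcnj10, Kcnk16, Kcne3 and Kcnab3. Kcng2, another silent Kv subunit, was covered by 26.3% and 11.9%, Kcnk16 by 23.7% and 7.19%, and Kcnj10, a glial inward rectifier, by 9.08% and 4.90%. Kcne3 had 7.29% in each, and Kcnab3 had 5.38% and 12.7%. The reverse pattern was found at 2 (1.53%), beside 0.913% of all genes. Cacnb1, the β subunit of skeletal muscle, had 14.2% and 3.37% in pre-adipocytes, and Kcnq3, a pore of the M-current, 3.44% and 2.64%. The share for mature cells was close to that of all genes, and the other rests on 2 genes.

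To compare read density rather than called length, the 12857 merged regions called in all 4 samples entered a quasi-likelihood fit in edgeR. The fit used the deposited counts and an offset for each sample's called length, and p-values were adjusted by Benjamini-Hochberg over all of them. Reads were counted only inside the parts that passed the caller in each sample. A change in called length, or the gain or loss of a whole region, does not enter this density, so the fit cannot show it. Of the tested regions, 122 lay in the windows of 45 channel genes. No region of a channel gene passed an adjusted p of 0.05, where 11 of all regions did (0.0856%). At an unadjusted p under 0.05 there were 11 of 122 (9.02%), beside 9.15% of all regions, so the share was that of the background. The log2 fold changes of mature over pre-adipocyte density ran from -0.34 to 0.47 with a median of 0.03, and 70 were above 0 and 52 below. All tested regions had a median of -0.0007, with 6401 above 0 and 6456 below. Many of the 122 regions share a gene and are not independent, and the split was not tested. The direction of single regions depends on the scaling, since TMM factors from counts not corrected for length moved the median of all regions to -0.32 with 0 called. DESeq2 also called none of them, but its independent filter left only 1 of the 122 with an adjusted p. Without pre-adipocyte replicate 1 a region at Kcnip4 was called, which is 0.820% of the channel gene regions beside 0.871% of all. Without pre-adipocyte replicate 2 a region each at Kcnip3 and Kcnma1 was called, 1.64% beside 1.74% of all.

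The smallest adjusted p belonged to a region beside Kcnh2 (chr5:24302401-24314200), the gene of the cardiac hERG channel. It had 27.5, 16.8, 45.0 and 39.8 ChIP reads per kb of called length, not scaled by library size, from 324, 57, 297 and 191 reads. The scaled fit gave a log2 fold change of 0.45 (SE 0.14, adjusted p = 0.241 by edgeR). A region inside Kcnma1 (chr14:23580001-23586600) had 30.9, 18.8, 47.7 and 49.8 unscaled reads per kb and a log2 fold change of 0.47 (SE 0.16, edgeR adjusted p = 0.301). One beside Cacng2 (chr15:78129001-78144600) gave 0.29 (SE 0.11, edgeR adjusted p = 0.382). At all 3 the direction turned when the length offset was left out, to -0.07, -0.11 and -0.60, and at Cacng2 also with the uncorrected TMM factors (-0.01).

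In the other direction, a region at Scn7a (chr2:66664401-66674600) had 35.8, 27.3, 34.1 and 38.5 unscaled reads per kb. After scaling, which raises the shallow pre-adipocyte replicate 2, its log2 fold change was -0.34 (SE 0.15, edgeR adjusted p = 0.476). A region at Kcnab1 (chr3:65113601-65121600) gave -0.31 (SE 0.18, edgeR adjusted p = 0.618) and one at Scn9a (chr2:66497601-66528400) -0.15 (SE 0.10, edgeR adjusted p = 0.671). At Scn3a, where called length fell from 30200 and 21200 bp to 5400 and 2000 bp in the tested region (chr2:65476401-65508600), the density in what was called had a log2 fold change of 0.01 (SE 0.11, edgeR adjusted p = 0.992). At Scn3a the called length differed between the conditions, and the read density of the called parts did not pass the test.

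**Figure D5:**
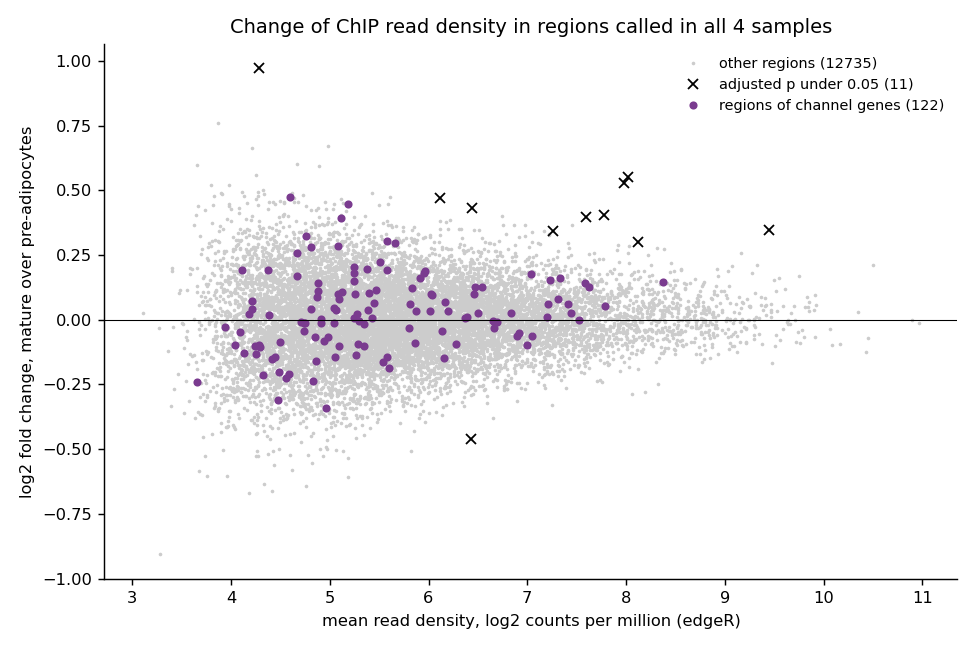
Log2 fold change of read density, mature over pre-adipocytes (y axis), against mean density (x axis, log2 CPM), for the 12857 regions called in all 4 samples. Grey dots are other regions, purple dots the 122 regions at channel genes and crosses the 11 with an adjusted p under 0.05. The purple dots lie between -0.34 and 0.47, and none carries a cross.

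A list of 28 other autosomal channel and channel-associated genes, such as Ryr and Itpr genes, gave 5 with a region in all 4 samples, 11 in some and 12 in none. Of all genes, 21.1% had a region in all 4 samples and 53.7% in at least 1. No share matched for length was taken for this list. The leak channel gene Nalcn was covered by 48.8%, 29.3%, 63.8% and 64.0%. Ryr3, a calcium release channel, had 43.5% and 19.6% in pre-adipocytes against 9.87% and 7.79% in mature cells. Long genes of this list also stood empty, among them Dpp6 at 910 kb, Dpp10 at 724 kb and Fgf12 at 593 kb.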

How the data were processed

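ChIP libraries from 2 pre-adipocyte and 2 mature adipocyte replicates were analysed with 1 no-antibody control. Per the study's methods and the submitters' processing notes, reads were mapped by the authors onto mm10 using Bowtie 1.1.2, with unique matches kept. They removed duplicates with Picard and called regions in each sample with SICER 1.1. The deposited tables hold, for each region, ChIP and control counts, p-values, a fold ratio scaled by library size and an FDR, whose largest value was 0.001 although the methods give another limit. Of 1000 intervals shared by 2 tables, 1000 had equal control counts, so all samples share 1 control. Pre-adipocyte replicate 2 was the shallowest library, and the part of depth in its lower coverage was not tested.

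Regions were written 1-based and overlapped with GENCODE M21 genes in Python 3.11.15. A window was covered where any region lay over it, and 1 bp of overlap counted. Shares of other genes were taken within 5 length classes, with no test. Region counts, coverage and median fold were compared by exact permutation over samples. edgeR 4.0.16 was fitted to the deposited counts of merged regions called in all 4 samples, with TMM factors from length-corrected densities. These replaced TMM on uncorrected counts, which was run first, after its shifted median was seen. The fit was tested on simulated data, and DESeq2 1.42.0 was an alternative. No label pairs the samples by replicate number, so no pairing was used. Same-numbered replicates did not deviate together in the density of called parts (r = 0.00775). With 2 replicates per condition this single value cannot decide whether they shared a culture or batch.

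The genes and lists were chosen with earlier results of these data known. Genes are named where they had the largest coverage (12) or most reads (6), or had regions in both replicates of 1 condition alone. Others were longest, had the smallest adjusted p in each direction, led a family, or stood on a short list of channels studied in fat cells. Further named genes, such as Cacna1h, Kcng3, Kcnc1, Kcnj11, Cacna1s, Kcna1, Kcna5 and Kcna6, met none of these criteria. The Scn genes of chromosome 2, Kcnt1, Kcnh8, Kcnd2, Cacnb2, Kcnc2, Cacnb3, Kcnip3 and the genes named from the list of other channels were chosen after their values were seen. A few genes that this rule names are counted in the totals and not reported singly here.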

Additional observations from a re-analysis of the deposited data

How the results depend on the processing

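With gene bodies alone, 5 kb flanks, an FDR of at most 1e-05, 1000 bp of overlap, or overlapping windows joined, 41 to 59 channel genes were occupied in all 4 samples. Regions of at least 2-fold enrichment left 24 in all 4 samples and 30 in both pre-adipocyte replicates, and a mature minus pre-adipocyte difference of 15.5 genes. Leaving out 1 replicate gave 59 to 67 in all the others, 71 to 74 in pre-adipocytes and 80 to 83 in mature cells. The gap to other genes of the same length was 10.2 to 18.3 percentage points. Joined windows, classes within chromosomes and the gap without pre-adipocyte replicate 2 were chosen after seeing the data. Leaving out 1 replicate, the mature minus pre-adipocyte difference was 7.5 to 10.5 genes and 1.40 to 8.55 points of coverage. The difference in median enrichment was -0.116 to 0.292, and -0.0285 at an FDR of at most 1e-05. Of 34 genes separated by condition, the groups overlapped at 12 with regions of at least 2-fold enrichment, 8 with gene bodies alone, 4 with 5 kb flanks, 5 at an FDR of at most 1e-05 and 6 relative to all genes. At these genes 5 of 170 alternatives turned the direction: Kcnd2 (0.543 at the stricter FDR), Cacna1s (-2.87), Kcnj3 (-0.988) and Scn7a (-0.761) at 2-fold enrichment, and Scn7a (-0.562 relative to all genes, a scale chosen after seeing the data).

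edgeR called 11 regions overall. It called 12 with DESeq2 size factors or at least 100 reads, 0 with library sizes relative to the control, 0 with TMM factors from counts not corrected for length (the first version run, which moved the median log2 fold change to -0.32 and Cacng2 to -0.0103), 3 without the length offset and 1 to 224 when 1 replicate was left out, where the lone sample is assumed to vary like the other group. DESeq2 called 6. The replicate block gave 27, although no label pairs the samples by number. Same-numbered replicates did not deviate together (r = 0.00775), but with 2 replicates per condition this value cannot decide whether they were paired. Channel gene regions numbered 0 in each of these but 0 to 2 when 1 replicate was left out. Without the offset 3 of the 6 named regions turned, to -0.0675 at Kcnh2, -0.113 at Kcnma1 and -0.598 at Cacng2. The causes were not tested.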

Other observations

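The 3 X-linked genes whose symbols meet the same naming rule, Cacna1f, Kcnd1 and Kcne1l, lay outside the autosomal count. None of them had a region within 10 kb in any of the 4 samples. No share of X-linked genes was set beside them.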
